A study of Rattus norvegicus with 6 samples.

Results

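Monoamine and acetylcholine receptors are the proteins through which serotonin, noradrenaline, adrenaline, dopamine, histamine and acetylcholine act on cells. The genes were taken as every non-control probe whose transcript accession maps to a rat receptor symbol of the Htr, Adra, Adrb, Chrm, Chrn or Hrh families or to Drd3, Drd4 or Drd5, which gave 53 probes for 50 genes among the 30367 probes of the array. The RefSeq gene table lists 51 symbols of this kind, and Hrh2 was not analysed here. Total RNA from rat brain was hybridized to 6 single-colour arrays, 3 of them sham-operated rats and 3 rats with intracerebral hemorrhage (ICH), that is, bleeding within brain tissue. The sham tissue is labelled only as brain, the ICH tissue as peripheral brain tissue, and the series title speaks of tissue around the hematoma, the clot. All 6 samples carry the label day 1 as age, without the event it is counted from. Strain, sex, the way the bleed was made and the brain region taken are not given in the sources used here, and the design text calls the ICH samples transfected, which no sample label does. Each value is a log2 signal relative to the 75th percentile of its array, each difference is ICH minus sham with its standard error, and n = 3 arrays in each group throughout. The question put to the receptors is whether their transcripts differ near the clot.

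Most of these receptors couple to G proteins. As background, Gs-coupled receptors raise cyclic AMP, Gi/o-coupled receptors lower it, and Gq-coupled receptors activate phospholipase C, while the nicotinic subunits and Htr3a and Htr3b form cation channels that open when the transmitter binds. Their transcripts are spread unevenly over the brain, so that striatum, cortex, hippocampus, thalamus and habenula each carry their own set. In whole tissue, fewer cells of a type and less RNA per cell cannot be told apart.

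Of the 53 probes, 44 probes of 41 genes were well above background on at least 3 arrays and were tested, 35 of them on all 6 arrays. None was called: limma gave 0 of 44 receptor probes, as it gave 0 of the 24650 probes tested (0%), at an adjusted p under 0.05. With p below 0.05 before adjustment, 8 receptor probes had higher ICH values and 3 lower ones, 18.2% and 6.82% of the 44, beside 6.18% higher and 8.82% lower of all probes tested. The count of those higher was 5 without ICH 1 and without any of the sham arrays, and the count of those lower was 0 without sham 1, 1 without sham 2 and 5 without ICH 2. All arrays lay on 1 slide, with ICH 2 and ICH 3 in another row than the rest, and with the row as a block, which compares ICH 1 with sham, 4 probes were higher and 1 lower. The 8 higher were Htr5b, Htr3b, Adra1d, Htr1a, Chrna5, Chrm1, Htr1f and Drd5, and the 3 lower were Htr1d, Adra2b and Chrm4. The ICH range lay wholly above the sham range for 8 probes, where the background was 10.8%, and wholly below it for another 8, where it was 16.7%, together 36.4% of the receptor probes beside 27.5% of all probes. Differences of at least 2-fold were seen for 7 probes upward (15.9%, beside 2.12% of all probes) and 3 downward (6.82%, beside 2.28%). The 7 include Htr3b, also among the 8 higher by p, which passed the filter through the ICH arrays where it was high. They also include Chrna6, which was well above background on 4 arrays only. The receptor probes also varied more within groups, with a median standard deviation of 0.34 among sham arrays and 0.43 among ICH arrays, beside 0.14 and 0.31 for all probes. The ICH standard deviation was the larger in 70.5% of receptor probes and in 79.8% of all probes. Their median difference was −0.11, with 20 higher and 24 lower (54.5%), beside −0.04 and 54.3% lower for all probes. With spike-in centring the receptor median was 0.27, beside 0.34 for all probes, and without ICH 2 it was 0.01.

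**Figure D1:**
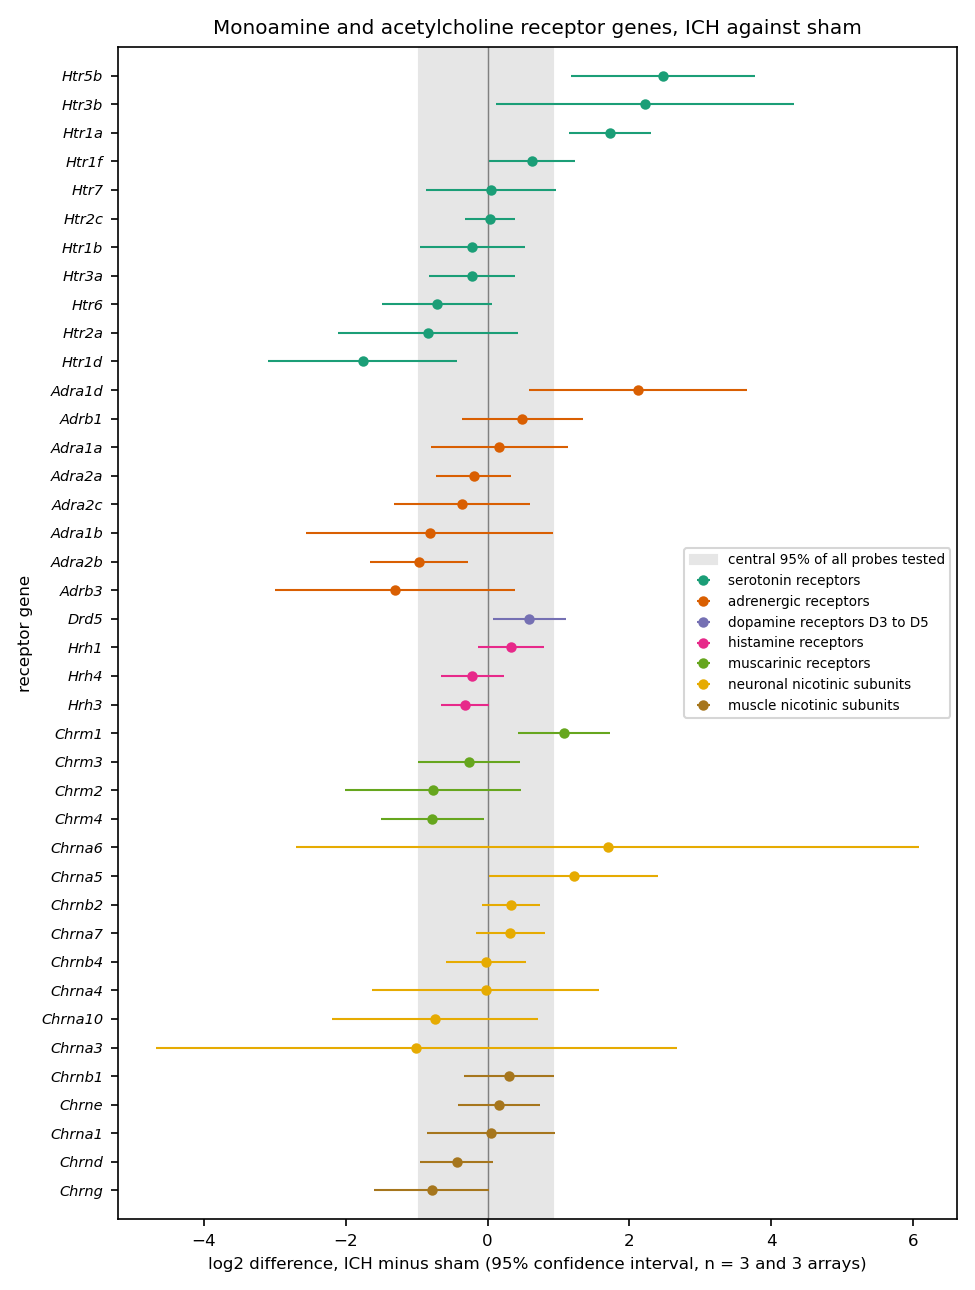
Log2 difference, ICH minus sham, with its 95% confidence interval from limma for 40 of the 41 receptor genes tested (brightest probe of each), coloured by class, over a grey band that holds the central 95% of all probes tested, from −0.97 to 0.93. Htr5b, Htr3b, Adra1d, Htr1a, Chrm1 and Chrna5 lie to the right of the band with intervals that do not reach 0, Htr3b on dim sham values, while the interval of Chrna6 runs from −2.69 to 6.08.

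The 250 bases upstream of the annotated start are shown for 4 genes without overlap between the groups, Htr5b and Adra1d, which were higher on ICH arrays, and Htr1d and Adra2b, which were lower, so that the sequences next to opposite differences can be read side by side. They come from RefSeq, build GRCr8, and are written 5′ to 3′ on the gene's strand. The capitals mark matches, on either strand, to a GC box (GGGCGG) or a CCAAT box (CCAAT).
Htr5b, chr13:35252587-35252836, strand -: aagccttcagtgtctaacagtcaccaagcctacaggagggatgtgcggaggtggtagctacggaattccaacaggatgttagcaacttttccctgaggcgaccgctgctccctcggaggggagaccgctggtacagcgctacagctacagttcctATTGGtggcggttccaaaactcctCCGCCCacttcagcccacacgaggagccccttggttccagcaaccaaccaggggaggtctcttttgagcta
Adra1d, chr3:139262332-139262581, strand -: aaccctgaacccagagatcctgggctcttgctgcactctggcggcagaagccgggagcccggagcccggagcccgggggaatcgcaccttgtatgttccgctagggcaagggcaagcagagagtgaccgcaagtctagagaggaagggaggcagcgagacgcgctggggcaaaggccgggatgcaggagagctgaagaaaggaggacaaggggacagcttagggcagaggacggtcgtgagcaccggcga
Htr1d, chr5:153939485-153939734, strand +: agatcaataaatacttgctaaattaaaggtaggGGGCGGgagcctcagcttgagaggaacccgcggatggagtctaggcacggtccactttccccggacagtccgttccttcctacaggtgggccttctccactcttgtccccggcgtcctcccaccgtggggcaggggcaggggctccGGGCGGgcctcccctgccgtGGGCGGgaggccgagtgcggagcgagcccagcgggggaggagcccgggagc
Adra2b, chr3:135038231-135038480, strand +: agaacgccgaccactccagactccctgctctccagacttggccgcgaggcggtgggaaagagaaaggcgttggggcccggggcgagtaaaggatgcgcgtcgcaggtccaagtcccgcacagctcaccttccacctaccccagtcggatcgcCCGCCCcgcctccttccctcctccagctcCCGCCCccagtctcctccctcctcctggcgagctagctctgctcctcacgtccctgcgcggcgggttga
The window of Htr1d held 3 GC boxes and that of Adra2b 2, that of Htr5b held 1 GC box and 1 CCAAT box, and that of Adra1d held neither. A GC box was present in 30.5% and a CCAAT box in 34.0% of the 33469 windows of this length in the table. A TATA box (TATAAA), an E-box of the NeuroD type (CAGATG), a cAMP response element (TGACGTCA) and an AP-1 site (TGANTCA), searched on both strands and overlapping no GC box or CCAAT box here, had no match in the 4 windows and were found in 12.9%, 14%, 1.59% and 6.34% of all windows. GC content was 56.8% for Htr5b, 64.0% for Adra1d, 66.8% for Htr1d and 68.0% for Adra2b, beside a median of 51.2%.

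Among the serotonin receptors, 12 probes of 11 genes were tested, 6 higher and 6 lower, with a median difference of −0.09, or 0.29 with spike-in centring and 0.01 without ICH 2. Htr5b, a serotonin receptor of rodents that is placed in the Gi/o-coupled group, stood at −4.27, −4.57 and −2.65 in sham and at −1.51, −1.68 and −0.87 in ICH, given here and below in the order of arrays 1 to 3. Every ICH array lay above every sham array, and sham 3 stood apart from the other sham arrays. The difference was 2.48 ± 0.53, or 5.58-fold (adjusted p = 0.287), and 2.11 to 3.07 with 1 array left out. Htr1a, a Gi/o-coupled receptor that acts as autoreceptor on serotonin neurons and as a receptor on hippocampal and cortical neurons, stood at −4.88, −5.27 and −4.64 in sham and at −3.25, −3.50 and −2.85 in ICH. The groups were separated by more than the spread within either, and the difference was 1.73 ± 0.24, or 3.31-fold (adjusted p = 0.173, the lowest among the receptors). It was 1.55 to 1.88 with 1 array left out. With arrays centred on spike-in probes, which moved the median of all probes from −0.04 to 0.34, Htr1a alone among the receptors was called (2.11, adjusted p = 0.0490), where its adjusted p over all alternatives ran from 0.0490 to 0.569.

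Htr1d, another Gi/o-coupled receptor, often found on axon terminals, went the other way. It stood at −3.96, −4.15 and −5.38 in sham and at −5.49, −7.20 and −6.09 in ICH. The groups did not overlap, though sham 3 and ICH 1 lay close together, and the difference was −1.76 ± 0.55 (adjusted p = 0.289), or −1.29 without ICH 2. The related Htr1f was at −6.24, −6.17 and −6.36 in sham and at −5.54, −5.21 and −6.13 in ICH, with a difference of 0.63 ± 0.25 (adjusted p = 0.327). It was 0.42 without ICH 2. Htr1b, a terminal autoreceptor, differed by −0.22 with a 95% confidence interval of −0.96 to 0.52.

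The Gq-coupled serotonin receptors gave 3 different pictures. Htr2b, known in heart valve, vessels and microglia, read only background in sham, at −9.27, −9.08 and −9.19, and on ICH 3, at −8.91, and stood at −3.74 and −4.99 on ICH 1 and ICH 2. It was therefore outside the test. For a rough estimate, sham 1 and sham 2 were given the signal of the dimmest probe that passed as detected on that array. The sham 3 and ICH 3 readings were kept, and Htr2b was then 6.62-fold higher in ICH. This is no lower bound, because undetected probes can read brighter. Drd3 was not detected on sham 1 at −7.41, where the dimmest detected probe read −8.21. The estimate was 18.9-fold without ICH 3, 4.86-fold without ICH 2 and 3.15-fold without ICH 1. Without the filter on dim probes the difference of 3.30 had an adjusted p of 0.383 in limma. Markers of activated myeloid cells, 10 of 10 tested, had medians from −0.24 to 0.20 on sham arrays and of 1.89, 2.19 and −0.23 on ICH 1 to 3 relative to the sham mean, so the same pair of arrays stood high. In that list 9 members were higher and 1 lower, Lyz2, and Arg1 and Spp1 were also raised on ICH 3, at 1.09 and 1.22. Neutrophil markers, 7 of 9 tested with 5 higher and 2 lower, had medians from −0.62 to 0.73 in sham and of 2.04, 3.09 and −0.11 in ICH. Homeostatic microglia markers, 8 of 8 tested with 3 higher and 5 lower, had medians from −0.01 to 0.02 in sham. Their ICH medians were −0.35, −0.52 and −0.37. The part of these cell types in the Htr2b signal was not tested. Htr2a, the cortical receptor at which hallucinogens act, was at −5.82, −5.96 and −5.75 in sham and at −6.13, −7.94 and −5.97 in ICH. ICH 2 lay far below the others and was not well above background, and the difference of −0.84 ± 0.52 (adjusted p = 0.462) was −0.21 without it. Htr2c, which is abundant in choroid plexus, stood at 0.38, 0.67 and 0.46 in sham and at 0.46, 0.49 and 0.67 in ICH, a difference of 0.04 with an interval of −0.31 to 0.39. Its dimmer probe gave −0.43, and −0.04 without ICH 2. Choroid plexus markers, 10 of 10 tested, had list medians of −1.06, 1.32 and −0.47 in sham and 0.88, −0.23 and 1.79 in ICH, and their part in the Htr2c values was not tested.

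Among the other serotonin receptors, Htr3b, a subunit that joins Htr3a in the serotonin-gated channel, stood at −9.23, −6.18 and −8.94 in sham, where only sham 2 was well above background, and at −6.56, −5.08 and −6.05 in ICH. The groups overlapped through sham 2, and Htr3b entered the test through the ICH arrays, where it was high. The fitted difference of 2.23 ± 0.87 (adjusted p = 0.321) therefore rests on dim sham values, and it was 0.61 with normexp background correction. Htr3a, which can form the channel alone, differed by −0.22 with an interval of −0.83 to 0.39. The Gs-coupled Htr6, a receptor of striatum and cortex chosen here after its values were seen, was at −5.68, −5.75 and −6.76 in sham and at −6.77, −7.00 and −6.54 in ICH, so that sham 3 lay among the ICH arrays. Htr7, also Gs-coupled, differed by 0.05 (−0.86 to 0.97). Htr5a stayed at background throughout, and Htr4 was well above it on 1 ICH array.

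**Figure D2:**
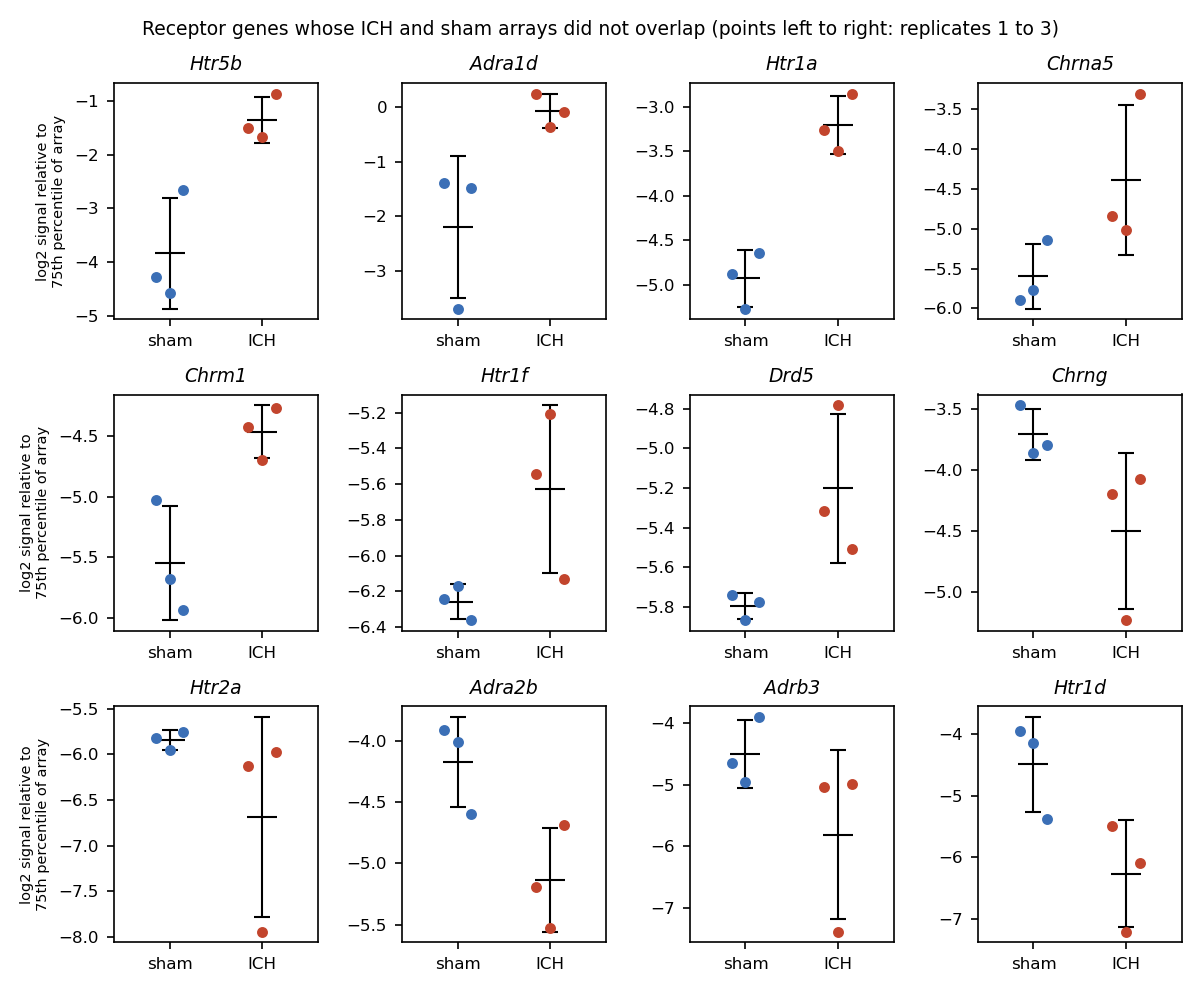
Log2 signal relative to the 75th percentile of the array for the 12 receptor genes whose sham and ICH values did not overlap and differed by at least 0.5, with points for the 3 arrays of each group and a bar for the mean ± SD. Htr1a shows separated groups of like spread, whereas the ICH spread of Htr2a and Adrb3 comes from ICH 2, at −7.94 and −7.39.

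All 9 adrenergic receptor genes were tested, 3 higher and 6 lower, with a median difference of −0.27, or 0.11 with spike-in centring. Adra1d, a Gq-coupled receptor of vessels, hippocampus and cortex, stood at −1.39, −3.69 and −1.48 in sham and at 0.25, −0.37 and −0.08 in ICH. The ICH arrays lay close together and above all sham arrays, of which sham 2 was far below the others. The difference was 2.12 ± 0.63, or 4.35-fold (adjusted p = 0.288), and 1.37 without sham 2. Endothelial markers, 7 of 8 tested, had medians from −0.04 to 0.01 in sham and of −0.40, −0.55 and −0.37 in ICH. Markers of mural cells of vessels, 8 of 8 tested, had medians from −0.06 to 0.07 in sham and of −0.20, −0.41 and −0.27 in ICH. The part of either cell type in the Adra1d values was not tested. Adra2b, a Gi/o-coupled receptor known from thalamus and vessels, stood at −3.91, −4.01 and −4.60 in sham and at −5.19, −5.53 and −4.69 in ICH. The gap between sham 3 and ICH 3 was small, and the difference was −0.96 ± 0.28 (adjusted p = 0.288). Adrb3, best known as the Gs-coupled receptor of fat, was at −4.65, −4.96 and −3.89 in sham and at −5.04, −7.39 and −4.99 in ICH. ICH 2 was not well above background there, and the difference of −1.31 ± 0.70 (adjusted p = 0.407) was −0.52 without it. Adrb1, a Gs-coupled receptor of cortex, differed by 0.49 (−0.36 to 1.34), and the autoreceptor gene Adra2a by −0.20 (−0.72 to 0.33).

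Adra1b, the Gq-coupled receptor that is strong in thalamus, stood at −0.09, 0.95 and 0.82 in sham and at 0.31, −1.87 and 0.79 in ICH. ICH 2 was lowest and sham 1 next, and the difference was −0.82 ± 0.72 (adjusted p = 0.581), or −0.01 without ICH 2. Thalamic markers, 7 of 10 tested, gave medians of −0.95, 0.49 and 0.45 in sham and 0.16, −1.46 and 0.51 in ICH, with the same arrays low. The part of thalamic tissue in these values was not tested.

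Of the dopamine receptors, Drd5, the Gs-coupled relative of the striatal D1-type receptor that is found in cortex and hippocampus, was the only one tested. It stood at −5.74, −5.87 and −5.78 in sham and at −5.32, −4.78 and −5.51 in ICH. The sham arrays were tightly grouped and the difference was 0.59 ± 0.21 (adjusted p = 0.304), or 0.38 without ICH 2. Drd3 and Drd4 stayed at background on all 6 arrays.

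The 4 histamine receptor probes had differences between −0.32 and 0.33, with none at an unadjusted p under 0.05. Hrh3, the Gi/o-coupled autoreceptor of histamine neurons that also sits on striatal and cortical neurons, stood at 2.69, 2.71 and 2.51 in sham and at 2.19, 2.47 and 2.28 in ICH. The groups did not overlap, and the difference was −0.32 ± 0.14 (adjusted p = 0.353), while another probe, for a different transcript accession of Hrh3, gave 0.01. The Hrh3 difference was 0.06 with spike-in centring. Hrh1, a Gq-coupled receptor of neurons, glia and vessels, differed by 0.33 ± 0.19 (adjusted p = 0.433), at −4.90, −4.79 and −5.01 in sham and −4.88, −4.56 and −4.26 in ICH. Hrh4, which is known from blood cells rather than brain, read 2.64, 2.33 and 2.47 in sham and 1.97, 2.5 and 2.31 in ICH, far above the 75th percentile of every array. It differed by −0.22 with an interval of −0.66 to 0.23.

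Of the muscarinic acetylcholine receptors, Chrm1 was higher and Chrm2, Chrm3 and Chrm4 lower. Chrm1, the Gq-coupled receptor of cortical and hippocampal principal neurons, stood at −5.03, −5.68 and −5.94 in sham and at −4.43, −4.70 and −4.27 in ICH. The groups did not overlap, and the difference was 1.08 ± 0.27, or 2.11-fold (adjusted p = 0.288). Chrm4, the Gi/o-coupled receptor of striatal projection neurons, stood at −1.25, −1.46 and −2.21 in sham and at −2.11, −2.73 and −2.42 in ICH. Sham 3 fell within the ICH range, and the difference was −0.78 ± 0.30 (adjusted p = 0.318). Chrm3, another Gq-coupled receptor, was at 0.51, 0.21 and 0.56 in sham and at 0.22, −0.42 and 0.69 in ICH, a difference of −0.27 ± 0.30 (adjusted p = 0.662). It was 0.03 without ICH 2 and 0.12 with spike-in centring. The 2 probes of Chrm2, the autoreceptor of cholinergic neurons, gave −0.77 and −0.63, or −0.19 and −0.25 without ICH 2, on which alone both were dim. Chrm5 stayed at background on all 6 arrays.

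Markers of cholinergic neurons, 6 of 6 tested, had medians from −0.08 to 0.26 in sham and of −0.50, −2.78 and −0.50 on ICH 1 to 3. The list median was thus low on ICH 2 as well, but Chat was not, at 0.15 there relative to the sham mean. Its difference was −0.01. Striatal projection neuron markers, 12 of 12 tested and all lower, had medians of 0.29, 0.32 and −0.57 in sham and −0.78, −1.37 and −0.87 in ICH. Sham 3 was the lowest sham array in this list, as it was for Chrm4, Htr1d, Htr6, Adra2b and Adra2c, of which Htr6 and Adra2c were singled out after their values were seen. It was the lowest sham array for 16 of the 44 receptor probes (36.4%, beside 28.6% of all probes), Chrm1, Hrh1 and Htr1f among them. Cortical projection neuron markers, 11 of 12 tested with Tbr1 at background on all arrays, had medians of 0.33, −0.33 and 0.12 in sham and 0.87, 0.94 and 0.53 in ICH, and were higher on the same arrays as Htr1a, Htr5b and Chrm1. Hippocampal markers, 5 of 8 tested, had list medians from −0.14 to 0.26 in sham and from −0.11 to 0.38 in ICH, over members that went opposite ways: Fibcd1, a gene of hippocampal pyramidal neurons, differed by 1.73 and Spink8 by −1.27 (adjusted p = 0.173 and 0.298). The part of striatal, cortical or hippocampal tissue in the receptor values was not tested.

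**Figure D3:**
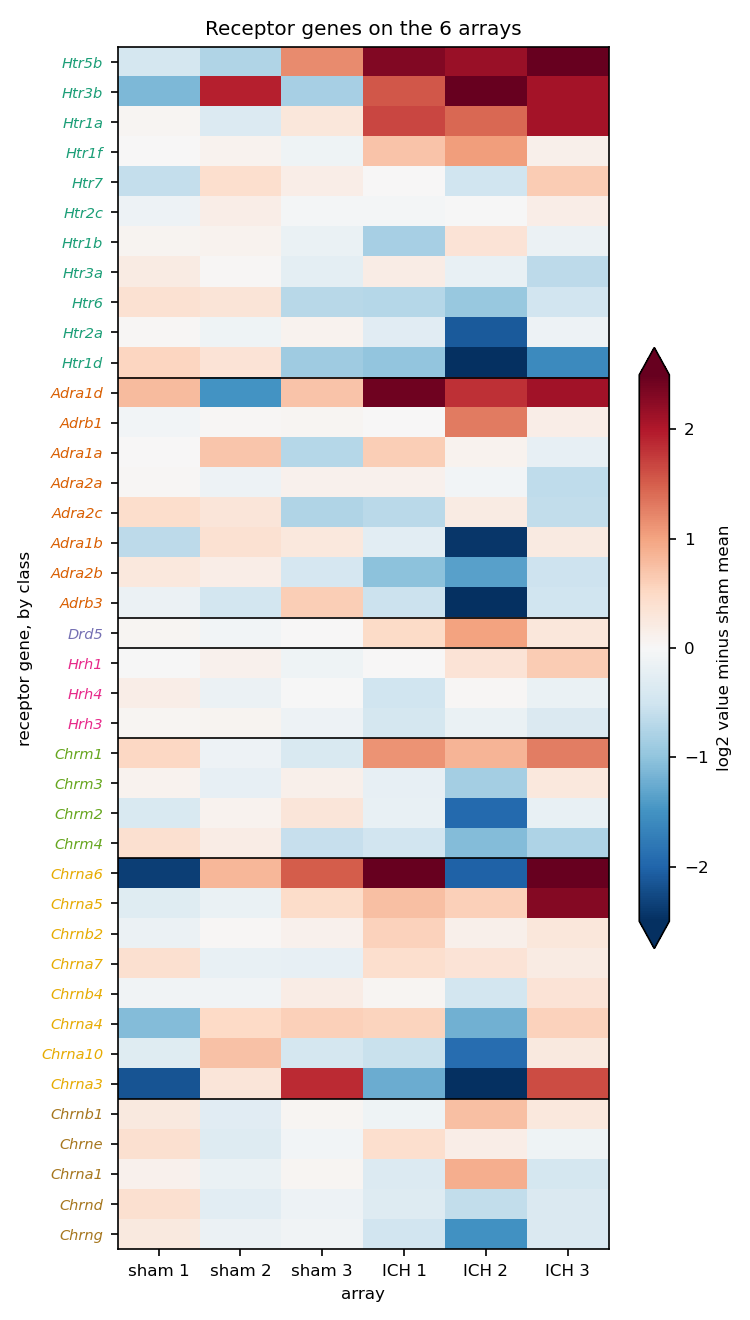
Log2 value minus the sham mean on each of the 6 arrays (columns) for 40 of the 41 receptor genes tested (rows, brightest probe, grouped by class with label colours as in the plot of differences), with the colour scale ending at −2.5 and 2.5. Htr5b, Htr1a, Adra1d and Chrm1 are above 0 on all ICH arrays, and ICH 2 holds more strong negative values than any other array.

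Of 11 neuronal nicotinic subunits, 8 were tested, 4 higher and 4 lower. Their median standard deviation was 0.52 in sham and 0.98 in ICH, beside 0.34 and 0.43 for all receptor probes. Chrna5, an accessory subunit, stood at −5.89, −5.77 and −5.14 in sham and at −4.84, −5.01 and −3.30 in ICH. No ICH value fell within the sham range, and the difference was 1.21 ± 0.49 (adjusted p = 0.330), or 0.67 without ICH 3. Chrna3 lies between Chrna5 and Chrnb4 on chromosome 8 in GRCr8 and, as background, Chrna3 and Chrnb4 pair with each other in the medial habenula. Chrna3 stood at −3.98, −1.52 and 0.03 in sham and at −3.06, −5.23 and −0.19 in ICH, a range over more than 5 log2 units in which the groups overlapped, with ICH 2 below all sham arrays and sham 3 above all ICH arrays. Its difference of −1.01 had an interval of −4.68 to 2.67 and was 0.20 without ICH 2. Chrnb4 stayed between −5.42 and −4.62 on all arrays.

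Chrna6, a subunit of dopamine neurons and visual pathways, was well above background on 4 arrays only. It stood at −9.15, −5.97 and −5.30 in sham and at −2.62, −8.83 and −3.88 in ICH, and its difference of 1.69 ± 1.81 (adjusted p = 0.647) was smaller than its error. It was 0.45 without ICH 1, 0.52 without sham 1 and 3.56 without ICH 2. Chrnb3, its neighbour on chromosome 16, was well above background on 1 ICH array. Chrna4, which with Chrnb2 forms the most common high-affinity receptor of the brain, stood at −2.09, −0.49 and −0.41 in sham and at −0.45, −2.21 and −0.41 in ICH. Sham 1 and ICH 2 were low in both groups, and the difference was −0.02 ± 0.66 (adjusted p = 0.988). Chrnb2 lay between −5.42 and −5.16 in sham and between −5.15 and −4.69 in ICH, a difference of 0.33 with an interval of −0.08 to 0.74. Chrna7, the subunit of the homomeric receptor of neurons and macrophages, differed by 0.32 (−0.17 to 0.81). Chrna2 stayed at background on all 6 arrays and Chrna9 on 5.

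Of the 6 habenula markers, 4 were tested, with medians of −0.86, 0.15 and 0.69 in sham and −0.64, −1.38 and 0.91 in ICH. Members of the list went different ways. The orphan receptor gene Gpr151 was high on sham 3 and ICH 3, at 3.94 and 3.86 relative to the sham mean, and between −3.66 and −0.28 on the other arrays. Irx2 was lowest on sham 3, at −0.60, and lay between 1.05 and 1.26 on the ICH arrays. The part of habenular tissue in the Chrna3 values was not tested.

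**Figure D4:**
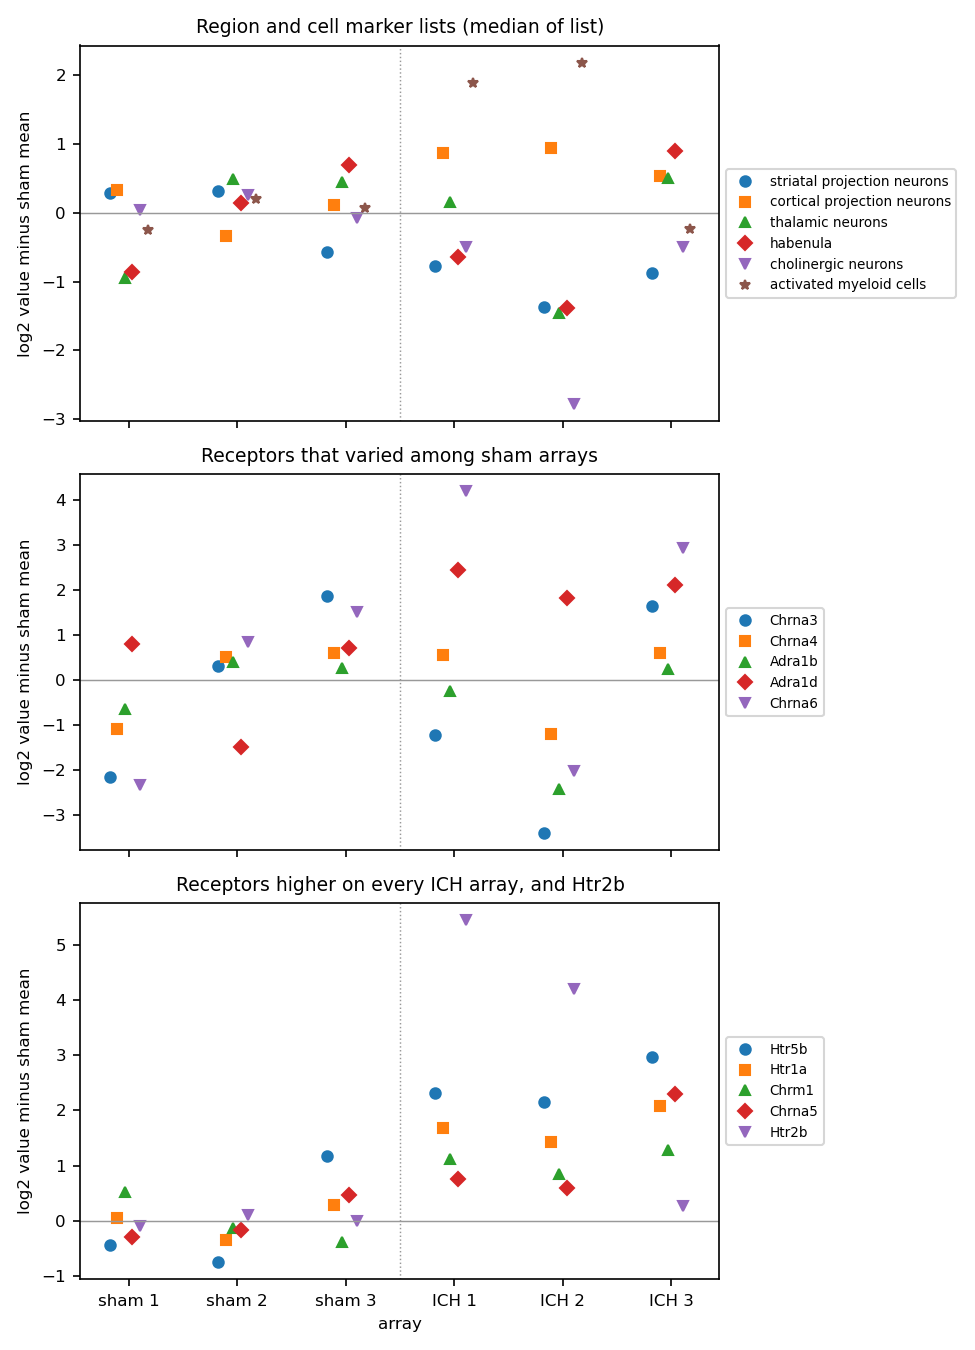
Log2 value minus the sham mean on each array for the medians of 6 marker lists (top), for 5 receptor genes that varied among sham arrays (middle) and for Htr2b with 4 receptor genes higher on every ICH array (bottom). Chrna3 ranges over 4.01 among sham arrays, and Htr2b and the myeloid list are high on ICH 1 and ICH 2 only.

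The 5 subunits of the muscle receptor, all tested, had a median difference of 0.04, or −0.34 without ICH 2. Chrng, the subunit of the fetal muscle receptor, stood at −3.47, −3.86 and −3.79 in sham and at −4.19, −5.23 and −4.07 in ICH. Every ICH array was below every sham array, and the difference was −0.79 ± 0.33 (adjusted p = 0.340), or −0.42 without ICH 2. Its neighbour Chrnd was at −4.95, −5.61 and −5.48 in sham and at −5.68, −5.97 and −5.70 in ICH, a difference of −0.44 ± 0.21 (adjusted p = 0.379). Chrna1, the ligand-binding subunit, stood at −1.79, −2.07 and −1.84 in sham and at −2.24, −0.99 and −2.33 in ICH. Its difference of 0.04 ± 0.37 (adjusted p = 0.961) was −0.39 without ICH 2, which alone was high. Skeletal muscle markers, 7 of 8 tested, had medians between −0.13 and 0.17 on all arrays.

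By the way they signal, 10 of 14 Gi/o-coupled receptor probes were lower (71.4%, beside 54.3% of all probes), with a median of −0.27. With spike-in centring 5 were lower (35.7%, beside 19.6% of all probes) and the median was 0.11, beside 0.34. The Gq-coupled receptors had 5 higher and 4 lower (median 0.04), the Gs-coupled ones 3 and 3 (median −0.11) and the channel subunits 8 and 7 (median 0.04). Relative to the sham mean, the Gi/o-coupled probes had medians of −0.46, −0.02 and −0.21 on ICH 1 to 3. Over receptor probes of every coupling, ICH 2 was the lowest of the 3 ICH arrays in 59.1%, beside 48.1% of all probes. It lay at least 2-fold from the sham mean in 47.7% of receptor probes, beside 18.5%. The same shares at 2-fold were 18.2% on ICH 1 and 20.5% on ICH 3, beside 7.11% and 3.95%.

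Genes that make, move and break down the transmitters, or that act below the receptors, formed 8 lists of 85 genes, of which 78 were tested. Of the 78, 33 were higher and 45 lower, where 54.3% of all probes were lower, and 0 were called. Before adjustment, 8 of the 78 were higher and 10 lower with a limma p below 0.05, beside 6.18% and 8.82% of all probes. Monoamine oxidase B (Maob), which breaks down dopamine and trace amines, differed by −0.40 ± 0.15 (adjusted p = 0.316). Of 12 synthesis genes 3 were higher and 9 lower. GTP cyclohydrolase (Gch1), which starts the synthesis of the cofactor of monoamine synthesis, was at −2.79, −2.97 and −2.95 in sham and at −1.03, −1.24 and −2.77 in ICH, high on ICH 1 and ICH 2. Its difference was 1.22 ± 0.46 (adjusted p = 0.314). The decarboxylase Ddc differed by −1.13 ± 0.90 (adjusted p = 0.551), through −2.90 on ICH 2.

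Of 9 transporter genes 2 were higher and 7 lower. Slc22a3, a low-affinity monoamine transporter, stood at −1.94, −1.50 and −1.54 in sham and at −3.03, −4.35 and −2.20 in ICH, with no overlap and a difference of −1.54 ± 0.53 (adjusted p = 0.298). The choline transporter Slc5a7 differed by −1.11 ± 0.50 (adjusted p = 0.357), with −3.51 on ICH 2. Among 5 tested of 11 genes for nicotinic receptor assembly and modulation, Ric3, a chaperone of Chrna7, differed by 0.49 ± 0.17 (adjusted p = 0.296) and the modulator Lypd1 by −0.36 ± 0.13 (adjusted p = 0.306). The Musk gene of that list stayed at background on all 6 arrays.

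Below the receptors, Gna14, an alpha subunit of the Gq family, stood at −3.80, −3.78 and −3.07 in sham and at −0.95, −1.86 and −1.79 in ICH. The groups did not overlap, and the difference was 2.02 ± 0.33 (adjusted p = 0.186). Gnai2, a Gi subunit, differed by −0.36 ± 0.12 (adjusted p = 0.297). Of 11 tested adenylyl cyclase and phospholipase C genes 6 were higher and 5 lower, with Adcy5, the cyclase of striatal neurons, at −0.92 ± 0.25 and Plcb3 at 0.48 ± 0.17 (adjusted p = 0.288 and 0.299). Of 15 RGS genes, which shorten G protein signals, 6 were higher and 9 lower, with Rgs9, a striatal member, at −1.52 ± 0.42 and Rgs5, a marker of pericytes, at −0.62 ± 0.20 (adjusted p = 0.288 and 0.289). Of 7 receptor kinases and arrestins, Grk6 and Grk2 came nearest, at −0.28 and 0.23 (adjusted p = 0.388 and 0.470). Adcy5 and Rgs9 also belong to the striatal marker list, Slc5a7 to the cholinergic one and Rgs5 to that of mural cells.

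On the arrays as a whole, 81.8% to 85.4% of spots were well above background and 0 were saturated, and correlations across probes were 0.985 to 0.991 among sham arrays, 0.95 to 0.980 among ICH arrays and 0.947 to 0.986 across the groups. Of 10 neuron markers, 9 were on the array and all 9 were tested, with list medians from −0.11 to 0.19. These markers went opposite ways: the ICH range lay wholly above the sham range for 3 of them and wholly below it for 3. The labels call the samples biological replicates, and 3 arrays per group limit the precision.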

How the data were processed

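Transcript levels of 6 rat brain samples, 3 sham and 3 ICH by their titles, were measured on Agilent single-channel arrays, labelled with Cy3 after linear amplification per the labels' protocols. Per the file headers, intensity values were read with Feature Extraction 11.5.1.1 and background-subtracted, and 0 or 1 marks other properties of each spot, such as being well above background; the submitters' processing notes name version 10.7. The deposited table holds log2 values, whose scale was worked out: they equal, within 0.001 for 98.3% to 99.2% of values, the mean log2 signal of a probe's spots minus the 75th percentile of the array, and 314 of the 318 receptor values did. Column medians ran from −2.77 to −2.61.

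The deposited log2 values were used. Probes were named through RefSeq transcripts (GRCr8 table, used for names and gene order): 18355 had 1 symbol, 0 several and 12012 none. Probes well above background (at least 0.5 of their spots) on at least 3 arrays entered limma 3.58.1 (R 4.3.3), with p-values adjusted by Benjamini-Hochberg over all 24650 of them. For genes with several probes the brightest is described. Genes were described where called, where the groups did not overlap with a difference of at least 0.5, as the 2 largest differences of a class, or as the class member with the highest mean; in other lists, where called or the 2 with the lowest p. Other members described (Htr1b, Htr2b, Htr3a, Htr6, Htr7, Adra2a, Adra2c, Adrb1, Hrh4, Chrm2, Chrna3, Chrna7, Chrnb2 and Chrnb4, and those at background) and single marker genes were chosen after their values were seen. Members and lists were chosen with earlier results of these data known. The test was tested on simulated data (10 runs, 200 changed probes each). It recovered 31% of 2-fold, 68% of 4-fold, 86.4% of 8-fold and 93% of 16-fold changes, and 6.01% of its calls were false. These shares are over probes of every kind, and the receptor probes varied more within groups than all probes. Python 3.11.15, numpy 2.4.6, pandas 2.3.3 and matplotlib 3.10.9 made tables and figures. The 18 alternatives covered values, background correction (normexp, offset 50), normalization, centring, filters, probes per gene, variance model, array weights, blocks and single arrays left out. Values of 2 genes, 1 of them a receptor, are not reported here.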

Additional observations from a re-analysis of the deposited data

How the results depend on the processing

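The receptor probes called stayed at 0 under every alternative except spike-in centring, which called 1, Htr1a. Over all probes, 0 calls became 3 with normexp, 4 with probes well above background on all 6 arrays, 4 with an intensity trend and robust variance, 8 with array quality weights, 25 with spike-in centring, and 0 to 31 with 1 array left out. Receptor probes higher at an unadjusted p under 0.05, 8 here, came to 4 with normexp, 4 with slide row blocked (then sham is set against ICH 1 only), and 5 to 8 with 1 array left out; those lower, 3 here, came to 5 with normexp, 5 with the replicate block, 1 with array quality weights, 1 with slide row blocked, 2 with spike-in centring, and 0 to 5 with 1 array left out. The replicate block called 0 probes. The labels do not say whether same-numbered arrays were paired. Deviations of same-numbered sham and ICH arrays had correlations of −0.194, −0.013 and 0.0682, which with 3 arrays per group cannot settle it. Of all probes at an unadjusted p under 0.05, 41.2% were higher, but 29.4% with median centring and 93.1% with spike-in centring. Receptor probes without overlap were 8 higher and 8 lower, and 12 and 2 with spike-in centring (27.3% and 4.55%, beside 31.2% and 2.49% of all probes, so that the share higher was no longer above that of all probes), where Adra2b and Chrng remained lower and the 8 higher genes remained higher. Of the 23 receptor genes described by rule, these changed sign: Chrm3 (0.12 with spike-in centring, −0.529 to 0.0266 with 1 array left out), Hrh3 (0.0606 with spike-in centring), Chrna1 (−0.0045 with quantile normalization, −0.0111 with median centring, −0.28 with array weights, −0.34 with the slide row, −0.39 to 0.28 with 1 array left out), Htr2c (−0.0179 with median centring, −0.0463 with the slide row, −0.0287 to 0.12 with 1 array left out) and Chrna4 (0.0036 with normexp, 0.36 with spike-in centring, 0.12 with array weights, 0.55 with the slide row, −0.57 to 0.57 with 1 array left out). Depth is limited by the arrays: 9 receptor genes lay at background on at least 4 of 6 arrays.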
